A study of Homo sapiens with 9 samples.

Results

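DEPP1, the FOXO transcription factors FOXO1, FOXO3 and FOXO4, the insulin receptor chain INSR, IRS1, IRS2 and PIK3R1, and the repressor BCL6 were followed in HepG2 cells deprived of glutamine (Gln). These 9 genes are 9 of the 22587 genes in the expression table, and they were taken by name. The set was chosen by the rise of DEPP1, a known FOXO target, in these same libraries, so the values of DEPP1 are given as a description without a test. HepG2 is an established line of tumor cells from human liver. The 3 groups were cells labelled as in normal medium, called Gln added here (n = 3), cells after 12 h of Gln deprivation (n = 3) and cells after 24 h of Gln deprivation (n = 3). The sample labels give no harvest time for the Gln added cells, which served as the control for both 12 h and 24 h. Gln deprivation therefore cannot be told apart from time in culture or the change of medium. The study's methods give high glucose DMEM with serum for routine culture. For deprivation they name Gln-deficient DMEM, without stating its glucose or serum. No genetic change is named for any group, and no insulin or inhibitor treatment is named. The labels mention GlutaMAX, a glutamine-containing dipeptide supplement, both for the Gln added group and in the account of the deprivation medium, so which cells received it could not be settled. Nothing in the labels says that the 3 libraries of a group came from separate cultures, so the p-values measure the spread between these libraries.

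Insulin binds the receptor INSR, which phosphorylates the adaptors IRS1 and IRS2. These recruit PI3-kinase through its regulatory subunit p85-alpha, the product of PIK3R1, and the lipid made by PI3-kinase brings AKT to the membrane. AKT phosphorylates the FOXO factors, which then leave the nucleus, so that FOXO target genes are on when insulin signalling is low and off when it is high. In the liver, FOXO1 raises genes of glucose output and IGFBP1, and FOXO factors also raise INSR and IRS2, a feedback that makes the pathway more sensitive during fasting. DEPP1, "decidual protein induced by progesterone", is a small protein linked to autophagy and oxidative stress, and its gene is a direct FOXO target in several cell types. BCL6 is a zinc finger repressor, known from germinal centre B cells, whose gene is also activated by FOXO factors. mRNA levels do not report AKT activity or where FOXO proteins are in the cell, and neither was measured in these files.

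Forkhead factors of the FOXO class bind the element TGTTTAC, and the promoters of the 9 genes were searched for it because DEPP1 led the choice of the set. The windows were those of RefSeq on GRCh38.p14, from 250 bases before to 50 bases after each start, read on both strands, and all 9 genes had at least 1 window (16 in all). TGTTTAC was found in 2 of the 16 windows, beside 1202 of all 35116 windows (3.42%). By gene these were 2 of the 9, DEPP1 and FOXO4, beside 1145 of 27305 genes (4.19%). In DEPP1 it began 180 bases before the start and lies on the other strand, where it reads GTAAACA in the direction of the gene. In FOXO4 it began at base 24 after the start, also on the other strand. The following lines show the DEPP1 promoter from base −250 to base −1 (chr10:44978810-44979059, minus strand) and the FOXO4 element with its flanks (chrX:71095864-71095890, plus strand), each 5′ to 3′ with the element in capitals.
DEPP1 promoter: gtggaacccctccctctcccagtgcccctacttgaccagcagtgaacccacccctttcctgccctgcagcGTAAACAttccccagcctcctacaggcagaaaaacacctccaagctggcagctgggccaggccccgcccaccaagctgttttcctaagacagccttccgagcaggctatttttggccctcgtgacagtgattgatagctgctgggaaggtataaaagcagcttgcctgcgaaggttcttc
FOXO4 element: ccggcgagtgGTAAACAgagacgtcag

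The short forkhead core TGTTT, which is part of TGTTTAC, was found in 9 of the 16 windows, beside 44.4% of all windows. At least 1 window of each gene but INSR held it. BCL6 held a run of overlapping cores between 106 and 94 bases before a RefSeq start inside the gene (chr3:187736587-187736615, minus strand), shown here with the cores in capitals.
BCL6 run of short cores: ggggaattTGTTTGTTTGTTTcaatccgc
The AP-1 element TGANTCA, searched because the study concerns c-Jun, was found in 3 of the 16 windows, 1 each of FOXO3, FOXO4 and BCL6, beside 7.71% of all windows. A match of letters describes the window and does not show that a factor binds there.

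The 9 libraries held 29621270 to 36261546 fragments on genes, as recovered from the FPKM values (fragments scaled by gene length and by library total), and the smallest was replicate 1 of the 12 h group. The 9 hepatocyte markers were expressed in every group. TTR was the lowest of them, at means of 18.1 FPKM with Gln added, 17.4 FPKM at 12 h and 16.8 FPKM at 24 h. ALB, serum albumin, had a mean of 3831 FPKM with Gln added, and 9 such markers summed to 7550 to 7650 FPKM with Gln added, to 6614 to 6684 FPKM in the 12 h libraries and to 6388 to 6721 FPKM in the 24 h libraries. Of 10 markers of other cell types, 4 (PTPRC, CD3E, MS4A1 and HBB) were not analysed here, and COL1A1, COL3A1, VWF and PECAM1 stayed under 0.4 FPKM in every library, whereas CD68 and LYZ were expressed. The sum of the other 6, nearly all of it LYZ, lay at 768 to 787 FPKM in the Gln added libraries, at 553 to 593 FPKM in those of 12 h and at 758 to 806 FPKM in those of 24 h, and its part in the values of the 9 genes was not tested. In cultures measured in bulk, fewer cells that express a gene and less RNA of it per cell cannot be told apart.

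DEPP1 stood several-fold higher after Gln deprivation, and higher at 24 h than at 12 h. The gene lies on chromosome 10 (GRCh38, GENCODE v44, bases 44970981 to 44978809, minus strand). Its levels with Gln added were 9.09, 8.24 and 7.90 FPKM in replicates 1 to 3. After 12 h of Gln deprivation they were 39.3, 40.6 and 39.1 FPKM, and after 24 h they were 70.2, 67.8 and 61.9 FPKM. Each group lay wholly above the one before it. The means were 8.41 ± 0.612, 39.7 ± 0.842 and 66.6 ± 4.27 FPKM (SD, n = 3 each), which is 4.72 times the Gln added mean at 12 h and 7.92 times at 24 h. Between 596 and 688 fragments stood behind a DEPP1 value with Gln added and between 4575 and 5325 at 24 h. On the scale of log2(FPKM + 0.1) the differences were 2.23 at 12 h and 2.97 at 24 h, and 0.74 between 12 h and 24 h. Counted from the highest log2 fold change among the 11880 genes tested, DEPP1 ranked 16 at 12 h and 7 at 24 h, and since it was chosen for this change the ranks are only a description.

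**Figure D1:**
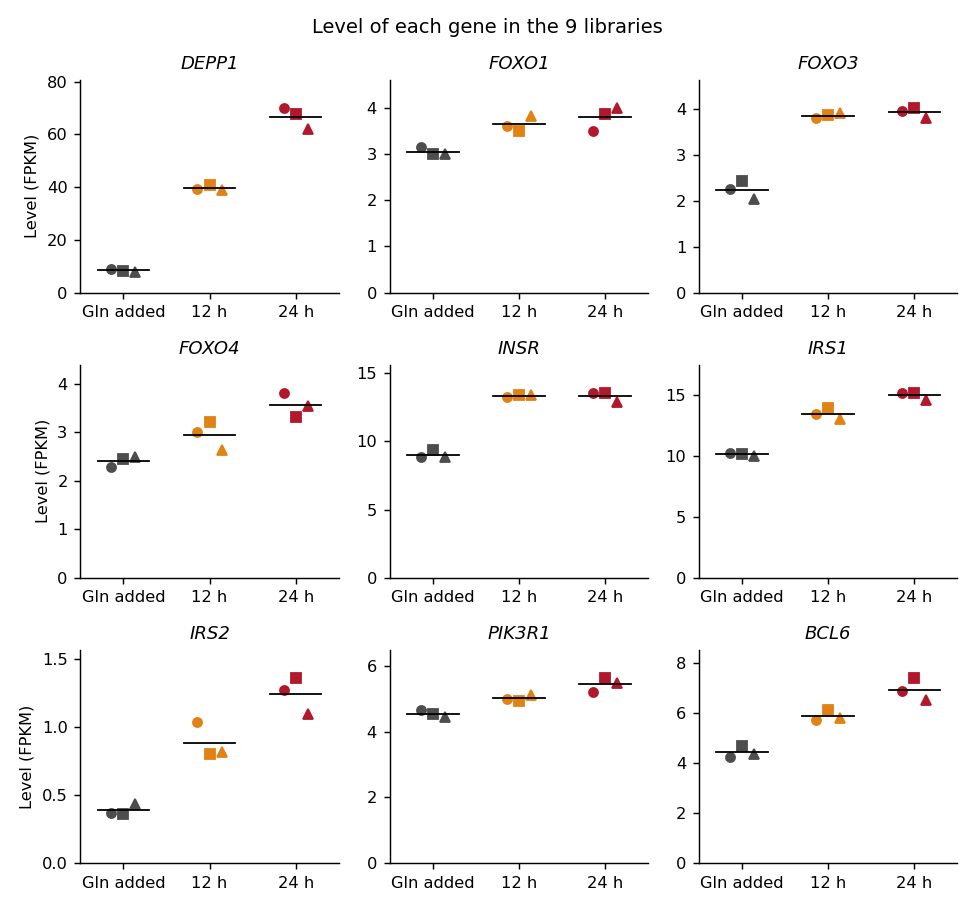
Level in FPKM (y axis of each panel, from 0) of each of the 9 genes with Gln added, after 12 h and after 24 h of Gln deprivation (x axis); each symbol is 1 library (circle, square and triangle for replicates 1, 2 and 3) and the bar is the group mean. DEPP1 steps up from a mean of 8.41 to 39.7 and 66.6 FPKM, whereas INSR and FOXO3 reach at 12 h the level they also have at 24 h.

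DEPP1 shares its locus with RASSF4, a RAS-association domain gene on the plus strand (chromosome 10, bases 44959407 to 44995891), whose exons cover 23.3% of the exonic bases of DEPP1. The study's methods describe libraries that keep strand, whereas the labels name another library kit and do not mention strand. Whether reads were counted by strand is not given in the sources used here, so reads from the shared bases cannot be assigned with certainty. RASSF4 stood at 21.0, 21.4 and 21.7 FPKM with Gln added and at 21.5, 21.1 and 20.9 FPKM after 12 h. After 24 h it was lower, at 17.9, 17.4 and 16.9 FPKM, below every library of the other groups. Its log2 fold change was −0.01 at 12 h (limma, adjusted p = 0.757) and −0.30 at 24 h (limma, adjusted p = 4.76e-05). At 24 h RASSF4 was lower and DEPP1 higher than with Gln added. What the shared bases gave to either value was not tested.

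The genes whose course was nearest to that of DEPP1 were sought among the 10867 genes that averaged 1 FPKM or more, and they are a description of the same 9 libraries with no test. By the root mean square difference of log2(FPKM + 0.1), after each gene was centred on its Gln added mean, the 5 nearest were AREG (0.171), ZMIZ1-AS1 (0.176), TSC22D3 (0.238), DUSP6 (0.277) and DUSP5 (0.288). These distances depend on the pseudocount. With a pseudocount of 1 the 12 h log2 differences were 1.65 (AREG), 1.40 (ZMIZ1-AS1), 1.48 (TSC22D3), 1.99 (DUSP6) and 1.66 (DUSP5), beside 2.11 for DEPP1. TSC22D3 (mean 0.437 FPKM, 42 to 61 fragments) and ZMIZ1-AS1 (0.917 FPKM) were under 1 FPKM with Gln added. They entered the comparison only through their deprived libraries. AREG encodes the EGF receptor ligand amphiregulin and went from a mean of 1.09 to 5.56 and 8.03 FPKM. DUSP6 and DUSP5, phosphatases that switch off ERK, went from 17.0 to 70.8 and 99.9 FPKM and from 1.13 to 5.66 and 12.7 FPKM. TSC22D3, which encodes the glucocorticoid-induced leucine zipper protein GILZ, went from 0.437 to 2.99 and 3.52 FPKM, and reached most of its 24 h level at 12 h. ZMIZ1-AS1 is an antisense RNA, so its value is uncertain unless strand was used in counting.

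By Pearson r over the 9 libraries, which ignores the size of the change, the 5 highest were SYNJ2 and SHB (0.999 each) and RHOB, LURAP1L and PABPC1L (0.998 each). Their differences were smaller, with SHB at 1.57 times and LURAP1L at 3.01 times the Gln added level after 12 h. In all, 112 genes had an r over 0.99 and 1025 an r over 0.95, so a high r was common. Within the set, IRS1 had the highest r with DEPP1 (0.995). All genes were read from the same 9 libraries in 3 groups, so the points of 1 gene are not independent of those of another.

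**Figure D2:**
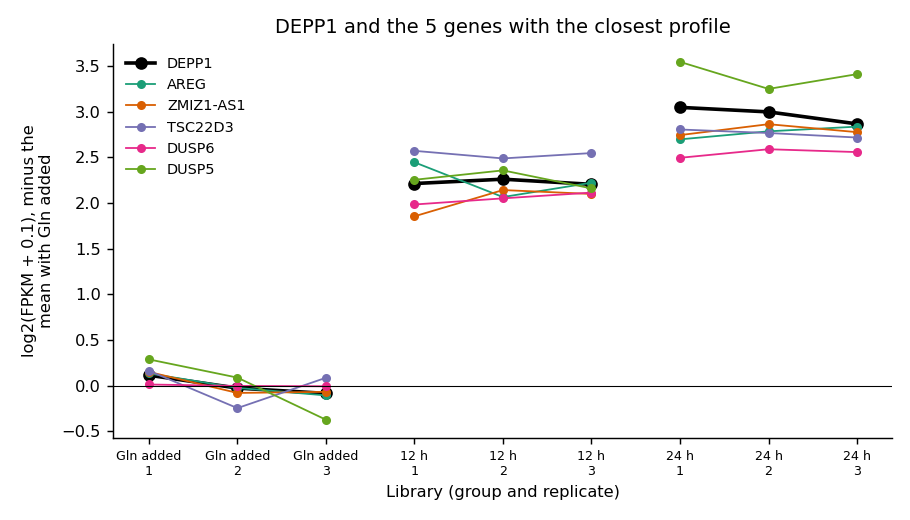
log2(FPKM + 0.1) minus its Gln added mean (y axis) for DEPP1 and the 5 genes nearest to it, in each of the 9 libraries (x axis); lines join the points of 1 gene and imply no order of replicates. TSC22D3 lies above DEPP1 at 12 h and below it at 24 h, and DUSP5 lies above it at 24 h.

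The other 8 genes were tested with limma together with all 11880 genes. All 8 were called higher (adjusted p under 0.05) after 12 h, beside 60.2% of all genes called in either direction and 29.1% called higher. All 8 were called higher after 24 h as well, with 64.7% of all genes called and 33.0% called higher. The genes were picked with these comparisons known, so the counts only describe the set. IRS2 averaged less than the filter of 0.5 FPKM with Gln added and was tested only through its deprived libraries, so it had to differ, and without it the counts were 7 of 7 at each time. Both comparisons use the same 3 Gln added libraries. In each of the 8 genes every library of both deprived groups lay above every Gln added library, which held for 32.8% of all genes at 12 h and 35.7% at 24 h. The median log2 fold change of the 7 genes other than DEPP1 and IRS2 was 0.40 at 12 h and 0.55 at 24 h, beside −0.02 and 0.01 over all genes. Between 12 h and 24 h, 2 of the 8 were called, both higher (IRS1 and BCL6), with 20.1% of all genes called and 9.57% called higher. Libraries at 24 h lay wholly above those at 12 h in 5 of the 8 (FOXO4, IRS1, IRS2, PIK3R1 and BCL6), and in 17.5% of all genes.

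FOXO3 changed most among the 3 FOXO genes, and most of its rise was in place by 12 h. It lies on chromosome 6 (bases 108559835 to 108684774, plus strand). With Gln added it stood at 2.26, 2.43 and 2.03 FPKM, after 12 h at 3.82, 3.87 and 3.92 FPKM, and after 24 h at 3.97, 4.04 and 3.80 FPKM. Both deprived groups lay above the Gln added libraries and overlapped each other. The log2 fold change was 0.76 ± 0.07 (SE, n = 3 each, limma, adjusted p = 5.92e-06) at 12 h and 0.79 at 24 h (adjusted p = 3.26e-06). From 12 h to 24 h it was 0.03, with a 95% confidence interval of −0.13 to 0.18 (adjusted p = 0.832). FOXO3B, a near-identical copy on chromosome 17 that was looked at after its values were seen, moved from a mean of 0.832 to 1.41 and 1.47 FPKM, and how reads were split between the copies is uncertain.

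FOXO1, the main FOXO factor of insulin-responsive glucose output in liver, changed little. It lies on chromosome 13 (bases 40555667 to 40666641, minus strand), and a lncRNA on the same strand covers 22.7% of its exonic bases. Its levels were 3.15, 3.00 and 3.01 FPKM with Gln added, 3.60, 3.50 and 3.83 FPKM at 12 h, and 3.50, 3.87 and 4.0 FPKM at 24 h. The lowest deprived library, 3.50 FPKM, was above the highest Gln added library. The rise was 1.19-fold at 12 h and 1.24-fold at 24 h, with log2 fold changes of 0.25 ± 0.07 (SE, limma, adjusted p = 0.00897) and 0.30 (adjusted p = 0.00243). In size, 51.3% of all genes changed more than FOXO1 at 12 h.

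FOXO4, which lies on chromosome X (bases 71095851 to 71103532, plus strand), rose in steps. It stood at 2.29, 2.45 and 2.50 FPKM with Gln added and at 3.00, 3.20 and 2.63 FPKM after 12 h, where replicate 3 was close to the Gln added libraries. After 24 h it stood at 3.81, 3.30 and 3.55 FPKM, above all 12 h libraries. The log2 fold change was 0.27 ± 0.09 (SE, limma, adjusted p = 0.0175) at 12 h and 0.54 (adjusted p = 2.38e-04) at 24 h, and the step from 12 h to 24 h was 0.27 (95% confidence interval 0.08 to 0.46, adjusted p = 0.0515). The 12 h call was lost without Gln added replicate 1 (adjusted p = 0.0641), 12 h replicate 1 (0.0519) or 12 h replicate 2 (0.0724).

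Within the sum of the 3 FOXO mRNAs the share of FOXO1 was lower and that of FOXO3 higher after Gln deprivation. Summed, they reached 7.54 to 7.87 FPKM in the Gln added libraries, 10.4 to 10.6 FPKM after 12 h and 11.2 to 11.4 FPKM after 24 h. FOXO1 made up 39.6% of the sum in the Gln added libraries, 34.9% after 12 h and 33.6% after 24 h. FOXO3 made up 29.1%, 37.0% and 34.9%, and FOXO4 31.3%, 28.1% and 31.5%, shares that also depend on the gene lengths used for the FPKM. The ratio of FOXO1 to FOXO3 within a library does not depend on the scaling between libraries, and it went from a mean of 1.37 to 0.942 at 12 h and 0.964 at 24 h, and deprived and Gln added libraries did not overlap. Its log2 differences of −0.54 and −0.50 each had a two-sided exact permutation p = 0.1, the smallest that 3 libraries against 3 can give. The ratio of FOXO3 to FOXO4 went from 0.933 to 1.32 at 12 h and 1.11 at 24 h, with log2 differences of 0.50 and 0.26 (exact permutation p = 0.1 for each).

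INSR, the receptor, rose within 12 h and then held its level. It lies on chromosome 19 (bases 7112255 to 7294414, minus strand). Its levels were 8.83, 9.39 and 8.83 FPKM with Gln added, 13.3, 13.4 and 13.4 FPKM after 12 h and 13.6, 13.5 and 12.9 FPKM after 24 h. The 12 h and 24 h libraries interleaved, and all stood above Gln added. The log2 fold change was 0.56 ± 0.04 (SE, limma) at both times, with an adjusted p = 1.29e-06 at 12 h and 9.08e-07 at 24 h, and the difference between the times lay between −0.10 and 0.09 (95% confidence interval).

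IRS1, an adaptor encoded on chromosome 2 (bases 226731312 to 226799820, minus strand), rose at 12 h and further at 24 h. It stood at 10.3, 10.2 and 10.0 FPKM with Gln added, at 13.5, 13.9 and 13.0 FPKM after 12 h and at 15.2, 15.2 and 14.6 FPKM after 24 h, without overlap between any of the groups. The log2 fold changes were 0.40 ± 0.04 (SE, limma, adjusted p = 1.24e-05) and 0.55 (adjusted p = 7.70e-07), and the step from 12 h to 24 h was 0.15 (adjusted p = 0.0257). That step was no longer called without 12 h replicate 1 (adjusted p = 0.0692), 12 h replicate 3 (0.0678), 24 h replicate 1 (0.0533) or 24 h replicate 2 (0.0739), nor with median-ratio size factors (0.12 on the log2 scale, adjusted p = 0.0884) or with only the 2 groups compared (0.0663).

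IRS2, the adaptor whose gene responds to fasting in liver, was the least abundant of the 9 genes. It lies on chromosome 13 (bases 109752695 to 109786583, minus strand). Its levels were 0.371, 0.358 and 0.434 FPKM with Gln added, from 102 to 126 fragments. Their mean of 0.388 FPKM was under the filter of 0.5 FPKM, which IRS2 passed only through the deprived groups, so its change is a description of a gene that had to differ. They were 1.03, 0.801 and 0.820 FPKM after 12 h and 1.28, 1.36 and 1.10 FPKM after 24 h, so no groups overlapped. The mean was 2.28 times the Gln added mean at 12 h and 3.21 times at 24 h. The log2 fold change was 1.01 ± 0.15 (SE, limma, adjusted p = 1.56e-04) at 12 h and 1.46 (adjusted p = 7.64e-06) at 24 h, on a scale whose pseudocount of 0.1 FPKM shrinks changes of genes this low. The step between the times was 0.45 (95% confidence interval 0.13 to 0.78, adjusted p = 0.0526).

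The ratio of IRS2 to IRS1 was higher after Gln deprivation, although IRS1 remained far more abundant. Its mean over 3 libraries went from 0.0381 to 0.0657 after 12 h and 0.0830 after 24 h, and every deprived library lay above the Gln added libraries. The log2 differences were 0.78 at 12 h and 1.12 at 24 h (two-sided exact permutation p = 0.1 for each), and the 12 h and 24 h ratios overlapped (0.34 on the log2 scale, exact permutation p = 0.2). Since IRS2 passed the filter only through the deprived groups, a rise of this ratio was favoured in advance. Its differences from Gln added are therefore a description, and no conclusion is drawn from their p-values.

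PIK3R1, the p85-alpha subunit that holds and regulates the PI3-kinase catalytic subunit, had the smallest change. It lies on chromosome 5 (bases 68215740 to 68301821, plus strand). Its levels were 4.66, 4.53 and 4.44 FPKM with Gln added, 5.00, 4.94 and 5.14 FPKM after 12 h and 5.23, 5.65 and 5.50 FPKM after 24 h. The groups did not overlap, although the gaps were small. The log2 fold change was 0.14 ± 0.05 (SE, limma, adjusted p = 0.0329) at 12 h and 0.26 (adjusted p = 0.00115) at 24 h. The 12 h call was lost when any of 5 libraries was left out, namely Gln added replicates 2 and 3 and each 12 h replicate (adjusted p from 0.0514 to 0.102).

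PIK3CA, which encodes the p110-alpha catalytic partner, had means of 2.72, 2.87 and 3.06 FPKM, and its log2 fold changes of 0.07 and 0.16 did not pass the test (limma, adjusted p = 0.632 and 0.243). The ratio of PIK3R1 to PIK3CA was 1.67, 1.77 and 1.80 in the 3 groups, which overlapped. Its log2 differences from Gln added were 0.08 (exact permutation p = 0.6) and 0.10 (exact permutation p = 0.4).

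**Figure D3:**
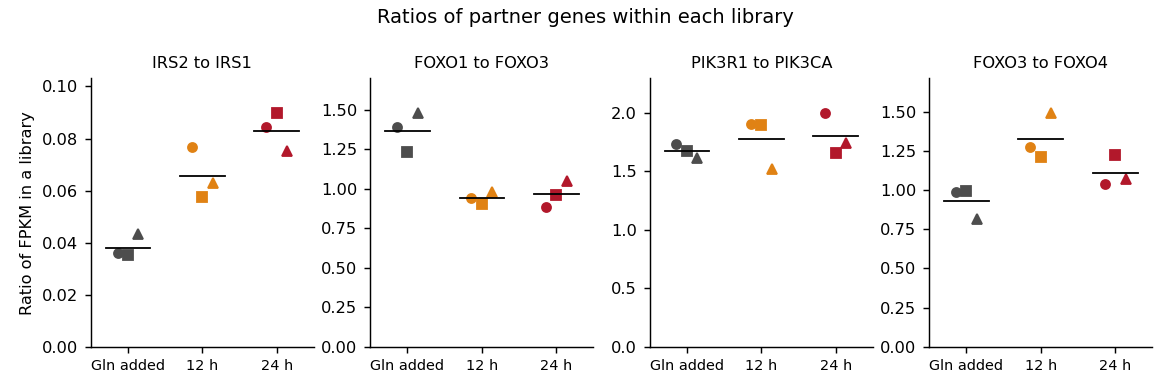
Ratio of FPKM of 2 genes within each library (y axis of each panel, from 0) by group (x axis); symbols are libraries (circle, square and triangle for replicates 1, 2 and 3) and bars are means. IRS2 to IRS1 goes up from 0.0381 to 0.0830 and FOXO1 to FOXO3 goes down from 1.37 to 0.964 at 24 h, whereas the libraries of PIK3R1 to PIK3CA overlap. IRS2 passed the filter only through the deprived groups, so a rise of its ratio was favoured in advance.

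BCL6 rose at both times. The gene lies on chromosome 3 (bases 187721377 to 187745725, minus strand), and exons on the other strand cover 8.20% of its exonic bases. It stood at 4.25, 4.70 and 4.37 FPKM with Gln added, at 5.73, 6.13 and 5.80 FPKM after 12 h and at 6.90, 7.42 and 6.53 FPKM after 24 h, each group wholly above the one before. The log2 fold change was 0.40 ± 0.06 (SE, limma, adjusted p = 2.71e-04) at 12 h and 0.63 (adjusted p = 6.90e-06) at 24 h, with 0.23 from 12 h to 24 h (adjusted p = 0.0243). The call between the times was lost without 12 h replicate 1 (adjusted p = 0.0805), 12 h replicate 3 (0.0580) or 24 h replicate 2 (0.0822).

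**Figure D4:**
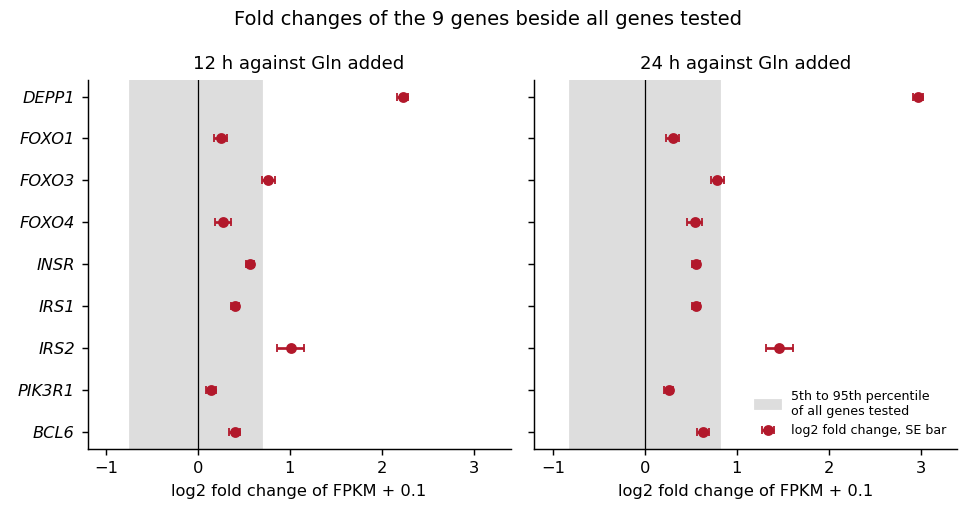
log2 fold change of FPKM + 0.1 (x axis) of the 9 genes (y axis) after 12 h (left) and 24 h (right) against Gln added, with SE bars; the grey band runs from the 5th to the 95th percentile of all 11880 genes tested. DEPP1 and IRS2 lie beyond the band at both times and FOXO3 at 12 h, and the other genes lie inside it. DEPP1 was chosen for its rise and IRS2 passed the filter only through the deprived groups. Their places beyond the band were favoured in advance and are only a description.

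In levels per length, DEPP1 moved from the third place of the 9 genes to the first. With Gln added the order by mean FPKM was IRS1, INSR, DEPP1, PIK3R1, BCL6, FOXO1, FOXO4, FOXO3 and IRS2, and the libraries of INSR and DEPP1, of PIK3R1 and BCL6, and of FOXO4 and FOXO3 overlapped. After 12 h it was DEPP1, IRS1, INSR, BCL6, PIK3R1, FOXO3, FOXO1, FOXO4 and IRS2, with overlap of IRS1 with INSR and of FOXO3 with FOXO1. After 24 h the order of the means was the same, and FOXO3, FOXO1 and FOXO4 overlapped in turn. The gene lengths implied by the FPKM values differed from the exonic bases of GENCODE v44 for some genes, 14591 against 7670 bases for FOXO3 and 9637 against 16323 for PIK3R1, so the order among genes close in level depends on the length used. With the GENCODE lengths, an alternative chosen after seeing the data, the Gln added order became IRS1, INSR, BCL6, DEPP1, FOXO1, FOXO3, PIK3R1, FOXO4 and IRS2.

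Among known FOXO-activated genes other than the 9, more rose than fell. Of 34 listed genes 29 were tested, and 17 rose and 8 fell at 12 h, and 18 rose and 8 fell at 24 h (limma, adjusted p under 0.05). Their median log2 fold change was 0.29 and 0.43. Over all genes, 60.2% were called in either direction at 12 h and 64.7% at 24 h. Called higher were 29.1% at 12 h and 33.0% at 24 h, with medians of −0.02 and 0.01, and the same background holds for the lists that follow. IGFBP1, the insulin-repressed binding protein for insulin-like growth factors secreted by liver, went from a mean of 95.6 FPKM to 829 and 1147 FPKM, with log2 fold changes of 3.12 (limma, adjusted p = 4.95e-12) and 3.58 (adjusted p = 1.15e-12). TXNIP, a brake on glucose uptake, rose by 1.75 and 1.89 on the log2 scale, and PPARGC1A, a coactivator of glucose output, by 1.19 and 1.67. G6PC1, the last enzyme of glucose output, rose from 1.74 to 3.36 and 5.11 FPKM, or 0.91 and 1.50 on the log2 scale.

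PCK1, the other classic FOXO target of glucose output, and PDK4, SESN3, FBXO32 and TRIM63 were below the 0.5 FPKM filter, PCK1 at a mean of 0.0763 FPKM with Gln added and 0.0374 FPKM at 24 h. TNFSF10, CAT, SESN1, CITED2, BNIP3 and APOC3 fell at both times, with log2 fold changes at 24 h from −0.30 for BNIP3 to −0.99 for CAT, the peroxide-degrading catalase. From 12 h to 24 h, 13 of the 29 were called, 9 higher and 4 lower, with 20.1% of all genes called and 9.57% called higher. IGFBP1 (0.47), G6PC1 (0.59) and PPARGC1A (0.49) were among the higher, and the lower were CAT (−0.34), MTTP (−0.29), APOC3 (−0.24) and CDKN1B (−0.18). TGTTTAC was found in the windows of 5 of the 26 listed genes that have one, beside 1145 of 27305 genes (4.19%). A link between the element and the changes was not tested. The 5 were BCL2L11, BTG1, MXI1, SELENOP and TXNIP. Of these, TXNIP, BTG1 and MXI1 rose at both times, SELENOP was lower at 12 h (−0.25) and 0.02 at 24 h, and BCL2L11 did not pass the test at either time, at 0.12 and 0.04.

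Genes that insulin raises in liver fell. Of 12 listed, 8 were tested, and all 8 fell at 12 h and at 24 h, with a median log2 fold change of −0.77 and −0.79. Over all genes, 60.2% were called at 12 h and 64.7% at 24 h. Of these calls, 48.4% were higher at 12 h and 51.0% at 24 h, and the rest were lower. PNPLA3, a lipid droplet enzyme, went from 11.4 to 3.30 and 3.20 FPKM, a log2 fold change of −1.77 and −1.81. FASN, fatty acid synthase, went from 165 to 74.3 FPKM at both times (log2 fold change −1.15 at each). SCD changed by −0.90 and −0.93 and ACACA by −0.74 and −0.81, enzymes of the same fat-making route. SREBF1, which encodes the factor that activates these enzymes, was lower by less, at −0.13 (limma, adjusted p = 0.0425) and −0.18 (adjusted p = 0.0108). Between 12 h and 24 h limma called 0 of the 8, beside 20.1% of all genes. At an unadjusted p under 0.05 there were 0 of the 8, and 0 by voom on the recovered fragments.

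**Figure D5:**
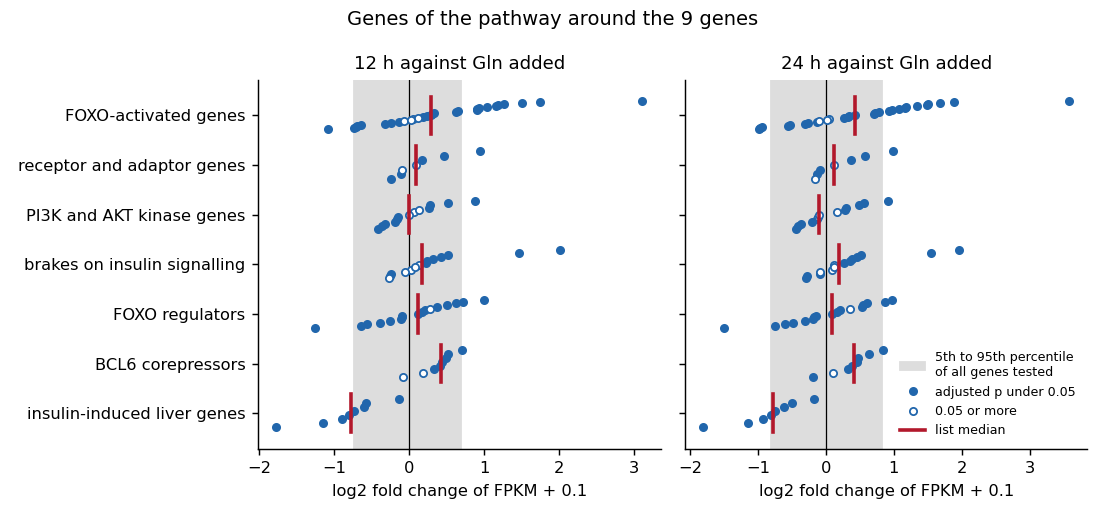
log2 fold change of FPKM + 0.1 (x axis) of the tested genes of 7 lists (y axis) after 12 h (left) and 24 h (right) against Gln added; filled points passed an adjusted p under 0.05, open points did not, red bars are list medians and the grey band is the 5th to 95th percentile of all genes tested. The insulin-induced liver genes all lie below 0, and the other lists spread to both sides, with the BCL6 corepressors mostly above 0.

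The rest of the pathway above AKT moved in both directions. Of 7 tested receptor and adaptor genes, 3 rose and 2 fell at each time, with a median log2 fold change of 0.09 and 0.11, and the calls at 24 h dropped from 5 to 3 without Gln added replicate 1 or replicate 2. GAB2, a docking adaptor for PI3-kinase, rose by 0.94 and 0.99, and IGF1R, the receptor closest to INSR, rose by 0.47 and 0.57. SHC1, an adaptor that links receptors to RAS and ERK, rose by 0.17 and 0.37. GAB1, a docking adaptor related to GAB2, was at −0.10 and −0.17 and did not pass the test (limma, adjusted p = 0.391 and 0.146). Of 13 tested PI3-kinase and AKT pathway genes, 4 rose and 6 fell at 12 h and 5 rose and 5 fell at 24 h, with a median of 0.00 and −0.10. PDPK1, the kinase that phosphorylates AKT, went from 10.6 to 19.7 and 20.1 FPKM (log2 fold change 0.88 and 0.91), and SGK2, an AKT-related kinase, changed by −0.32 and −0.44. PIK3CD, the p110-delta catalytic subunit, rose by 0.52 and 0.55, and RICTOR, a subunit of the mTOR complex that phosphorylates AKT, by 0.28 and 0.49. The 12 h call of RICTOR (limma, adjusted p = 0.0403) was lost without a filter (0.0978) or without trend (0.0582). It was also lost without Gln added replicate 2 or 3, 12 h replicate 2 or 3, or 24 h replicate 3 (adjusted p from 0.0504 to 0.151).

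Among 14 tested brakes on insulin signalling, 7 rose and 2 fell at 12 h and 7 rose and 3 fell at 24 h, with a median of 0.18 and 0.20. TRIB3, a pseudokinase that binds AKT and the protein the study is about, went from 64.3 to 262 and 251 FPKM (log2 fold change 2.02 and 1.96). GRB10, an adaptor that blocks the insulin receptor, went from 0.903 to 2.69 and 2.85 FPKM (1.47 and 1.55). INPPL1 and PHLPP2, a lipid and a protein phosphatase of the pathway, rose by 0.42 and 0.53 at 12 h and by 0.52 and 0.46 at 24 h.

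Of 17 tested regulators of FOXO proteins, 8 rose and 8 fell at each time. SKP2, a ubiquitin ligase subunit that marks FOXO1 for degradation, went from 17.4 to 7.23 and 6.06 FPKM (log2 fold change −1.26 and −1.50), and XPO1, the exportin that carries FOXO proteins out of the nucleus, changed by −0.64 and −0.75. CREBBP, an acetyltransferase and coactivator, rose by 1.00 and 0.98, and SIRT1, a deacetylase of FOXO proteins, by 0.71 and 0.87. Of 8 tested BCL6 corepressors, 6 rose at 12 h and 6 rose at 24 h, and HDAC3 fell at 24 h, with a median of 0.43 and 0.42. HDAC5 rose by 0.52 and 0.84, HDAC7 by 0.70 and 0.64, and BCOR by 0.49 and 0.45. HDAC4, a deacetylase of the same class as HDAC5 and HDAC7, rose by 0.41 and 0.47.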

How the data were processed

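The 9 RNA-seq libraries were aligned to GRCh38 with STAR per the study's methods, and the submitters' processing notes name HTSeq and R 3.2.0. The authors deposited FPKM values per gene, with no count table used here, and every column was used. The gene model behind the FPKM and the use of strand in counting are not given in the sources used here. Because FPKM was deposited, the study's count model was replaced by limma 3.58.1 in R 4.3.3 (lmFit, eBayes with trend) on the log2 of FPKM plus 0.1, for the 11880 genes that averaged 0.5 FPKM or more, all 9 libraries in 1 fit, with Benjamini-Hochberg adjustment over these genes and calls at an adjusted p under 0.05. Single genes and within-library ratios were compared with two-sided exact permutation tests in scipy 1.17.1 (Python 3.11.15); the smallest p for 3 libraries against 3 is 0.1. Figures were drawn with matplotlib 3.10.9. The steps of the FPKM values gave whole fragments for 100% of the 22587 genes (within 0.01 of a fragment, beside rounding of the file), with library totals of 29621270 to 36261546. The limma script was tested on simulated data.

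The 9 genes and the pathway lists were chosen with earlier results of these data known. The text names the 9 genes, from each list the 4 genes of largest change at 24 h that averaged 1 FPKM or more, the 5 genes nearest to DEPP1 by each measure, PIK3CA for its ratio, and RASSF4 for its overlap. Other list genes were named after their values were seen. Alternatives were pseudocounts of 0.01 and 1, no filter, a filter of 1 FPKM, FPKM rescaled to 1 total, median-ratio size factors, only the 2 groups compared, a replicate block, eBayes without trend, voom on recovered fragments, and each library left out. Promoter windows and motifs came from RefSeq on GRCh38.p14. Planned protein features were not analysed here. Of the 11 listed receptor and adaptor genes, INSRR and IRS4 were not analysed here and SH2B2 and DOK1 were below the filter. In addition, 1 gene is not reported here. Replicate pairs of a group differed by more than sampling noise (2.88 to 14.4 chi-square per gene).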

Additional observations from a re-analysis of the deposited data

Results flagged for a closer look

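IRS1 and BCL6 are listed here because their change differed between the 2 times of deprivation by limma's test of 24 h against 12 h. The difference was 0.15 on the log2 scale for IRS1 (limma, adjusted p = 0.0257) and 0.23 for BCL6 (adjusted p = 0.0243). Over all genes, 9.57% were called higher there. In both genes the 24 h libraries lay wholly above the 12 h libraries. That also held for FOXO4, IRS2 and PIK3R1 and for 17.5% of all genes, so it does not set IRS1 and BCL6 apart. IRS2 (0.45) and FOXO4 (0.27) had larger estimates that missed the threshold, with wider errors. IRS2 was called under 5 alternatives, with a pseudocount of 1, rescaled FPKM, no trend, voom or without 12 h replicate 1 (limma, adjusted p from 0.00628 to 0.0461). FOXO4 was called under 6, with a pseudocount of 1, a filter of 1 FPKM, rescaled FPKM, voom, or without 12 h replicate 2 or 24 h replicate 2 (adjusted p from 0.0381 to 0.0493). The calls of IRS1 and BCL6 depended on single libraries, as given with the values of each gene.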

How the results depend on the processing

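The 12 h and 24 h counts of the 8 tested genes called against Gln added stayed at 8 of 8 under the alternatives, except that a filter of 1 FPKM gave 7 at both times, because IRS2 was then not tested, and leaving out 1 library gave 6 to 8 at 12 h. With the filter of 1 FPKM, 6840 of all 10868 genes tested were called at 12 h and 7353 at 24 h. With 1 library left out, 6444 to 7434 of all genes tested were called at 12 h. DEPP1 was 2.11 at 12 h and 2.84 at 24 h with a pseudocount of 1. The comparison of 24 h with 12 h depended most on the processing, and the cause was not tested. The number of the 8 genes called there was 2 as reported, 4 with a pseudocount of 1, with FPKM rescaled to the same total or with voom, 1 with median-ratio size factors or only the 2 groups compared, and 0 to 3 when 1 library was left out. Of all 11880 genes, 2386 were called as reported, 2399 with a pseudocount of 1 and 2395 with rescaled FPKM. With voom it was 2640 and with median-ratio size factors 2539. With only the 2 groups compared it was 1772 of 11840 genes. With 1 library left out, 1651 to 2514 genes were called.

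For the lists between 12 h and 24 h, FOXO regulators gave 4 calls as reported, 2 with rescaled FPKM or without trend, 1 without a filter or with only the 2 groups compared, and 1 to 4 with 1 library left out. PI3-kinase and AKT genes gave 1 as reported, 0 with rescaled FPKM, without trend, without a filter or with only the 2 groups, and 0 to 2 with 1 library left out. Brakes gave 2 as reported, 1 with rescaled FPKM, median-ratio factors or no trend, 0 without a filter, and 0 to 2 with 1 library left out. BCL6 corepressors gave 1 to 2 with 1 library left out. At 24 h against Gln added, receptor and adaptor genes gave 5 as reported, 3 without trend, and 3 to 5 with 1 library left out (3 without Gln added replicate 1 or 2). Of all genes, 7686 were called there as reported, 7625 without trend, and 7026 to 7818 with 1 library left out. Without Gln added replicate 1 it was 7045, and without replicate 2 it was 7161.

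Directions turned only where the value was near 0. From 12 h to 24 h, FOXO3 was −0.0092 with median-ratio factors, and INSR was 0.011 with rescaled FPKM and −0.017 to 0.020 with 1 library left out (0.020 without 24 h replicate 3). The FOXO1 to FOXO3 ratio ran from −0.034 (without 24 h replicate 3) to 0.093, and the PIK3R1 to PIK3CA ratio from −0.084 (without 12 h replicate 3) to 0.078, with −0.055 without 24 h replicate 1. At 12 h, RASSF4 was 0.019 with rescaled FPKM and 0.0050 with median-ratio factors. With 1 library left out, PIK3CA ran at 12 h from −0.051 (without 12 h replicate 3) to 0.13. Of all genes called between 12 h and 24 h, 47.7% were higher, against 33.4% with median-ratio factors and 54.3% with rescaled FPKM.

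The labels number the replicates, but same-numbered libraries did not deviate together (r from −0.14 to 0.28 for the same number, −0.47 to 0.30 for different ones), so the numbers were not taken as pairs. With the replicate block 7341, 7802 and 2586 genes were called against 7147, 7686 and 2386 without it, at 12 h, at 24 h and between the times. With 3 libraries a group, small steps such as that of PIK3R1 at 12 h are near the limit of what can be called.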
